A study of Rattus norvegicus with 14 samples.

Results

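The genes followed here encode fibroblast growth factors (FGFs) and the regulators through which the FGF pathway restrains or reports the activity of its ERK kinases. Members were all noncontrol probes whose name in the array design was Fgf, Spry, Spred, Dusp or Etv followed by a number, a rule that used names and no measured value. This gave 57 genes on 71 probes, of 35528 names with a probe: 22 Fgf, 4 Spry, 3 Spred, 22 Dusp and 6 Etv genes. The probe with the highest mean over the arrays stood for its gene. Of the 57 members, 41 exceeded background on arrays A and B alike in 1 line or more and were tested together with all 24859 names that met this filter.

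FGFs bind receptor tyrosine kinases together with heparan sulphate or klotho proteins, and the receptors pass the signal through adaptors to RAS, RAF, MEK and ERK. ERK activity induces sprouty and spred proteins, which act upstream of RAF, and dual-specificity phosphatases (DUSPs), which remove phosphate from MAP kinases, while the ETS factors Etv1, Etv4 and Etv5 are transcribed downstream of FGF in many tissues. In the early embryo, FGF signalling from the epiblast directs inner cell mass cells towards primitive endoderm, or hypoblast, which forms yolk sac.

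Total RNA of 7 rat cell lines was hybridised to 14 one-colour arrays, 2 per line (A and B). The lines Fi1 (male Fischer), Fi2 (female Fischer) and Wk8 (female Wistar-Kyoto) were stem cell lines from blastocysts. CL19 (female Fischer), 3C3 (male Fischer) and RMAPC-1 (male Fischer) were stem cell lines from bone marrow, and RClone-2 (male Fischer) was the single mesenchymal control line. The series text calls the stem cell lines hypoblast stem cells, and the labels name no treatment. They do not say whether arrays A and B came from separate cultures, so the line was the replicate, and p-values measure the spread between lines. Wk8 was the only Wistar-Kyoto line, so strain and line cannot be told apart.

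All levels are log2 signals relative to the 75th percentile of the same array, so a level of 0 equals that percentile. The percentile lay between 559 and 891 intensity units, and 61.8% to 68.1% of spots were well above background. The lowest signal called well above background lay between -6.66 and -5.80, and a level under the value of its own array is background. Levels of different probes are not compared. Primitive endoderm markers were higher in the stem cell lines for 7 of 8 genes, with list means of 4.31 to 4.86 against -3.18 in RClone-2, and 8 of 8 mesenchymal markers were lower, with list means of -5.32 to -4.88 against 3.00. Thy1, Prrx1 and Postn were above background on 0 of 12 stem cell arrays, and Sox7 on 0 of 2 RClone-2 arrays. In bulk RNA, fewer cells of a type and less RNA per cell cannot be told apart, and the part of these marker differences in the member differences was not tested.

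Against RClone-2, the stem cell lines had higher levels of the ligands Fgf8 and Fgf10, of the inhibitors Spry1 and Spry2 and of the phosphatases Dusp9, Dusp16, Dusp4 and Dusp2, and lower levels of Fgf7, Dusp6, Dusp7, Dusp1, Dusp14, Dusp5, Etv1 and Etv4. Of the 41 tested members, 25 differed by the limma fit at an adjusted p under 0.05, with 12 above and 13 below RClone-2. Over all genes tested, 47.2% differed, 24.8% higher and 22.5% lower. For the called members Dusp8 and Fgf13 the stem cell line means overlapped RClone-2. The median difference was -0.32 over the tested members and 0.03 over all genes. The split of the members depended on the scaling: it was 13 higher and 11 lower without scaling, which shifts the median of all genes by 0.21, and 10 higher and 16 lower with scaling to spiked-in control transcripts, which shifts it by -0.43.

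**Figure D1:**
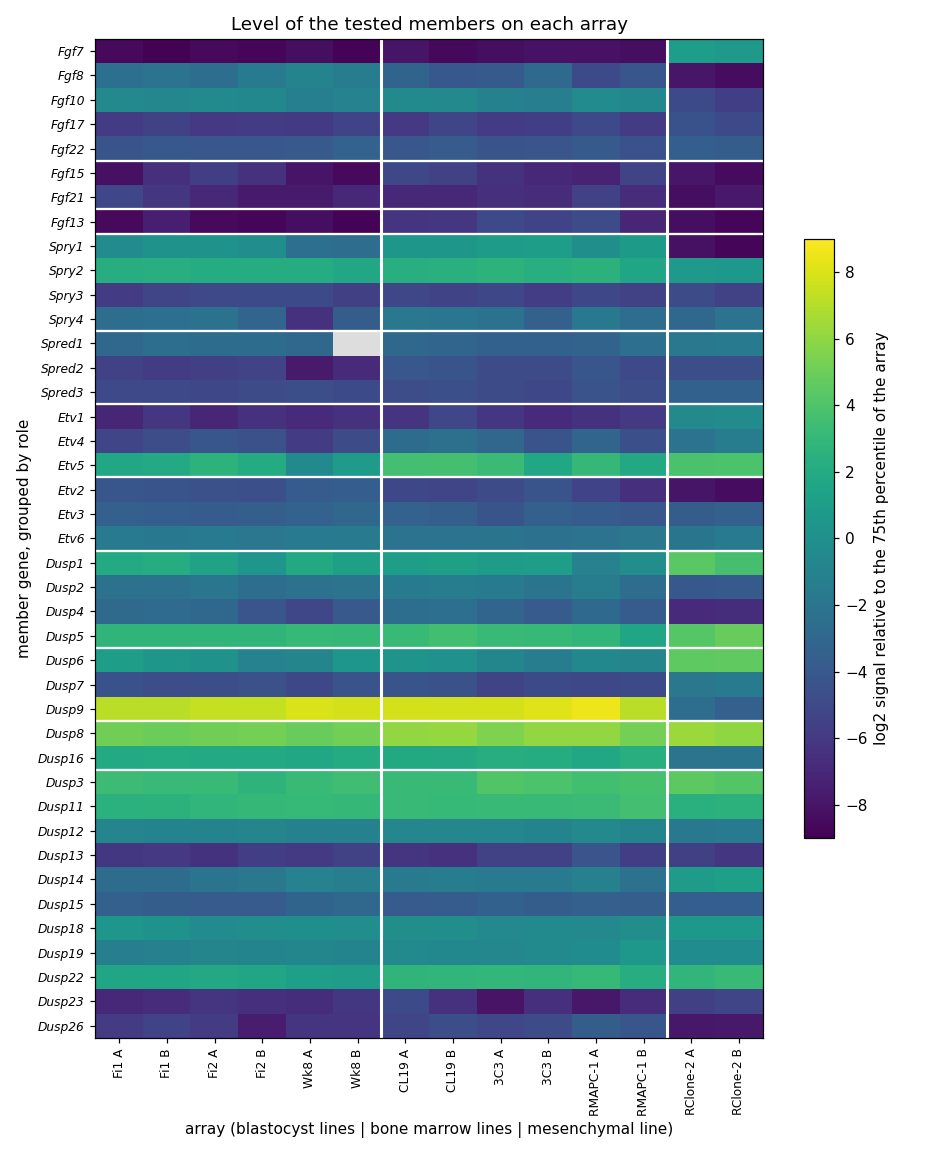
Heat map of the log2 signal relative to the array's 75th percentile for the 41 tested members (rows, grouped by role) on the 14 arrays (columns, A and B of each line), with a grey cell for 1 spot left out as a scanner outlier. Dusp9 is high and Fgf7 low on all 12 stem cell arrays, and the RClone-2 arrays show the opposite.

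Promoter windows are shown for the members with the 3 largest passing differences from RClone-2 in each direction among those with a matched promoter, a choice that rests on the measured differences. RefSeq promoter sequence of assembly GRCr8 was matched by symbol for 45 of the 57 members, and the 250 bases before the annotated start are printed 5′ to 3′ on the gene's strand. Capitals mark matches, on either strand, to short motifs. For ETS factors only the letters GGAAGT were searched, so shorter or other forms of their site were not counted. The cyclic AMP response element was searched as TGACGTCA. The TATA box was searched with the letters TATAAA, and the site of GATA factors with AGATAA. The higher members are Dusp9 (chrX:156502987-156503236, plus strand), Spry1 (chr2:122485097-122485346, plus strand) and Fgf8 (chr1:254539606-254539855, minus strand), and the lower members are Fgf7 (chr3:133735377-133735626, plus strand), Etv1 (chr6:61317179-61317428, plus strand) and Dusp6 (chr7:35979354-35979603, plus strand).
Dusp9: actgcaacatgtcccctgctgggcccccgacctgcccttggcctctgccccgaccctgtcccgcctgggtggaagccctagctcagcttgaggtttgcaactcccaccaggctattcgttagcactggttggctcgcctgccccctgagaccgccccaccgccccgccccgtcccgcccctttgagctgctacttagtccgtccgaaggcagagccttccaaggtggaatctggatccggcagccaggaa
Spry1: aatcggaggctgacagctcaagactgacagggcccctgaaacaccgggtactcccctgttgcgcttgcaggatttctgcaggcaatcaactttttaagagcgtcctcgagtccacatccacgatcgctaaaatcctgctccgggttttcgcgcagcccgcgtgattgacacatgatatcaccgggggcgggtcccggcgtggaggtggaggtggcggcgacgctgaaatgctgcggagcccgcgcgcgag
Fgf8: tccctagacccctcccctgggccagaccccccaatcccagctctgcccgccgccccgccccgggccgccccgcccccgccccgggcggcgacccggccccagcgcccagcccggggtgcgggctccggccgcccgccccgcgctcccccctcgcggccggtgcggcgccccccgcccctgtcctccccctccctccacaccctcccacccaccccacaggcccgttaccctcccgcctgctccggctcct
Fgf7: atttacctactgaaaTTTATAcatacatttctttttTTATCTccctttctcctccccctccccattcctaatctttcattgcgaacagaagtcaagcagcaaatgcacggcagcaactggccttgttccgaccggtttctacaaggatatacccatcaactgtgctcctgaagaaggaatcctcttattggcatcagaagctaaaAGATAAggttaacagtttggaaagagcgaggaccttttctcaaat
Etv1: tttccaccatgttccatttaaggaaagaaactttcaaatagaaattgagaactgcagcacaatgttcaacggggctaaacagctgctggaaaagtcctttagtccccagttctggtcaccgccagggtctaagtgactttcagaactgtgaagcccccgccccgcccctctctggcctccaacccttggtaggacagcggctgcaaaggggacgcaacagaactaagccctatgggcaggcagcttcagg
Dusp6: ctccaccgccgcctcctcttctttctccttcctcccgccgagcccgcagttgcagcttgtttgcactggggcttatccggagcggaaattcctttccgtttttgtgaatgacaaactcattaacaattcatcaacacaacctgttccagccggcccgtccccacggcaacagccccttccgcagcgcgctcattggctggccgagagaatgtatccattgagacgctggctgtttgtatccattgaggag
The windows of Dusp9, Spry1, Fgf8, Etv1 and Dusp6 hold none of the 4 motifs, and Fgf7 holds a TATA match 235 bases and GATA matches 214 and 45 bases before the start. Among members that differed from RClone-2 and had a promoter, 0 of 9 higher ones held any of the motifs. Of the 11 lower ones, 1 held the ETS letters GGAAGT, 1 the cyclic AMP response element, 2 the TATA box and 3 the GATA site. Over 27457 promoter windows of the same length the shares were 19.5%, 1.70%, 13.1% and 10.1%. A match describes letters only, and no match says only that these letters are not in this window.

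Canonical ligands are secreted and act on nearby cells, and 5 of 15 passed the background filter. Fgf8, a ligand of early mesoderm and of embryonic signalling centres, measured -4.95 on the lowest, -2.67 on the median and -0.98 on the highest of the 12 stem cell arrays, against -7.91 and -8.38 in RClone-2. The arrays did not overlap, and RClone-2 was not above background. The stem cell lines were at least 11.1-fold higher (log2 difference 5.29 ± 0.54, SE, 6 lines against 1, limma adjusted p = 0.000595). Such a bound sets the brighter group's mean on each array against the lowest signal called well above background or against the dim probe's own signal where that was higher, and the fitted log2 difference beside it is no bound. The Fgf8 probe lies at chr1:250951312-250952269 in the rn4 positions of the files.

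Fgf8 also separated the origins, with line means of -2.29 in Fi1, -2.07 in Fi2, -1.20 in Wk8, -3.62 in CL19, -3.40 in 3C3 and -4.55 in RMAPC-1. Every blastocyst array was above every bone marrow array. The blastocyst lines were 4.02-fold higher (log2 difference 2.01 ± 0.41, SE, 3 lines against 3, limma adjusted p = 0.0179). With the slide as a block, in a fit over arrays with line as a random block, the difference was 1.77 and did not pass (adjusted p = 0.0849). Nor did it pass without all B arrays (2.06, adjusted p = 0.0526).

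Fgf10, which mesenchyme sends to branching epithelia, measured -1.31 on the lowest, -0.59 on the median and -0.33 on the highest of the stem cell arrays and -4.99 and -5.63 in RClone-2, without overlap. Its line means were -0.61 in Fi1, -0.52 in Fi2, -1.12 in Wk8, -0.49 in CL19, -1.19 in 3C3 and -0.47 in RMAPC-1. The difference from RClone-2 was 4.57 ± 0.35 (SE, 23.8-fold, limma adjusted p = 0.000188). Between the origins Fgf10 differed by -0.03 ± 0.27 (adjusted p = 0.933).

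Fgf7, keratinocyte growth factor, which binds the same receptor isoform as Fgf10, ran the opposite way. It measured 1.00 and 0.76 in RClone-2 and lay between -8.87 and -7.97 on the stem cell arrays, 0 of 12 of which were above background. The stem cell lines were at least 139-fold lower (log2 difference -9.31 ± 0.14, SE, limma adjusted p = 1.11e-06). Its stem cell line means were -8.70 in Fi1, -8.62 in Fi2, -8.58 in Wk8, -8.29 in CL19, -8.20 in 3C3 and -8.22 in RMAPC-1. The origins differed by -0.40 ± 0.10 (adjusted p = 0.0336), but both were at background and no fold is given.

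Fgf17 and Fgf22, the other tested canonical ligands, were dim. Line means of Fgf17, a relative of Fgf8, were -5.63 in Fi1, -5.90 in Fi2, -5.67 in Wk8, -5.63 in CL19, -5.77 in 3C3, -5.40 in RMAPC-1 and -4.68 in RClone-2, and the stem cell lines were lower by a log2 difference of -0.98 ± 0.20 (SE, limma adjusted p = 0.00851). Line means of Fgf22, a presynaptic organiser in brain, were -4.19 in Fi1, -4.11 in Fi2, -3.64 in Wk8, -3.98 in CL19, -4.27 in 3C3, -4.19 in RMAPC-1 and -3.66 in RClone-2, and the difference of -0.40 ± 0.24 did not pass (adjusted p = 0.223).

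Endocrine ligands act at a distance with klotho co-receptors, and 2 of 3 passed the filter. Line means of Fgf15, the gut hormone of bile acid feedback, were -7.38 in Fi1, -6.01 in Fi2, -8.27 in Wk8, -5.34 in CL19, -6.65 in 3C3, -6.27 in RMAPC-1 and -8.19 in RClone-2, with 4 of 14 arrays above background. Line means of Fgf21, a metabolic hormone, were -5.66 in Fi1, -7.36 in Fi2, -7.33 in Wk8, -6.93 in CL19, -6.61 in 3C3, -6.12 in RMAPC-1 and -8.07 in RClone-2, with 3 of 14 arrays above background. Neither passed the limma test against RClone-2 (adjusted p = 0.179 and 0.136) or between the origins (0.211 and 0.752).

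Fgf13 belongs to the intracellular FGF homologues, which are not secreted and bind voltage-gated sodium channels. It lay between -8.83 and -7.45 on the blastocyst arrays, 0 of 6 above background, and between -7.06 and -4.85 on the bone marrow arrays, 4 of 6 above background. Its line means were -7.99 in Fi1, -8.61 in Fi2, -8.57 in Wk8, -6.19 in CL19, -5.21 in 3C3, -5.95 in RMAPC-1 and -8.51 in RClone-2. Blastocyst lines were at least 1.58-fold lower than bone marrow lines (log2 difference -2.61 ± 0.31, SE, limma adjusted p = 0.00615). With normexp background correction the origins differed by -0.30 (adjusted p = 0.735), and without all A arrays by -2.12 (adjusted p = 0.0601). The bone marrow lines were at least 1.46-fold higher than RClone-2, while the blastocyst lines and RClone-2 were both not above background and no fold is given.

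The 14 Fgf genes that did not pass the filter were above background on 0 to 3 of the 14 arrays. Chosen after their values were seen, 3 are named here. Fgf4, the epiblast ligand, was above background on 1 array. Fgf2, read by 10 spots per array, measured -5.87 and -5.86 in RClone-2, with 1 array above background, and lay between -8.36 and -7.66 on the stem cell arrays. Fgf14 measured -3.32 on array A and -8.87 on array B of Wk8, so its level there rests on 1 array.

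**Figure D2:**
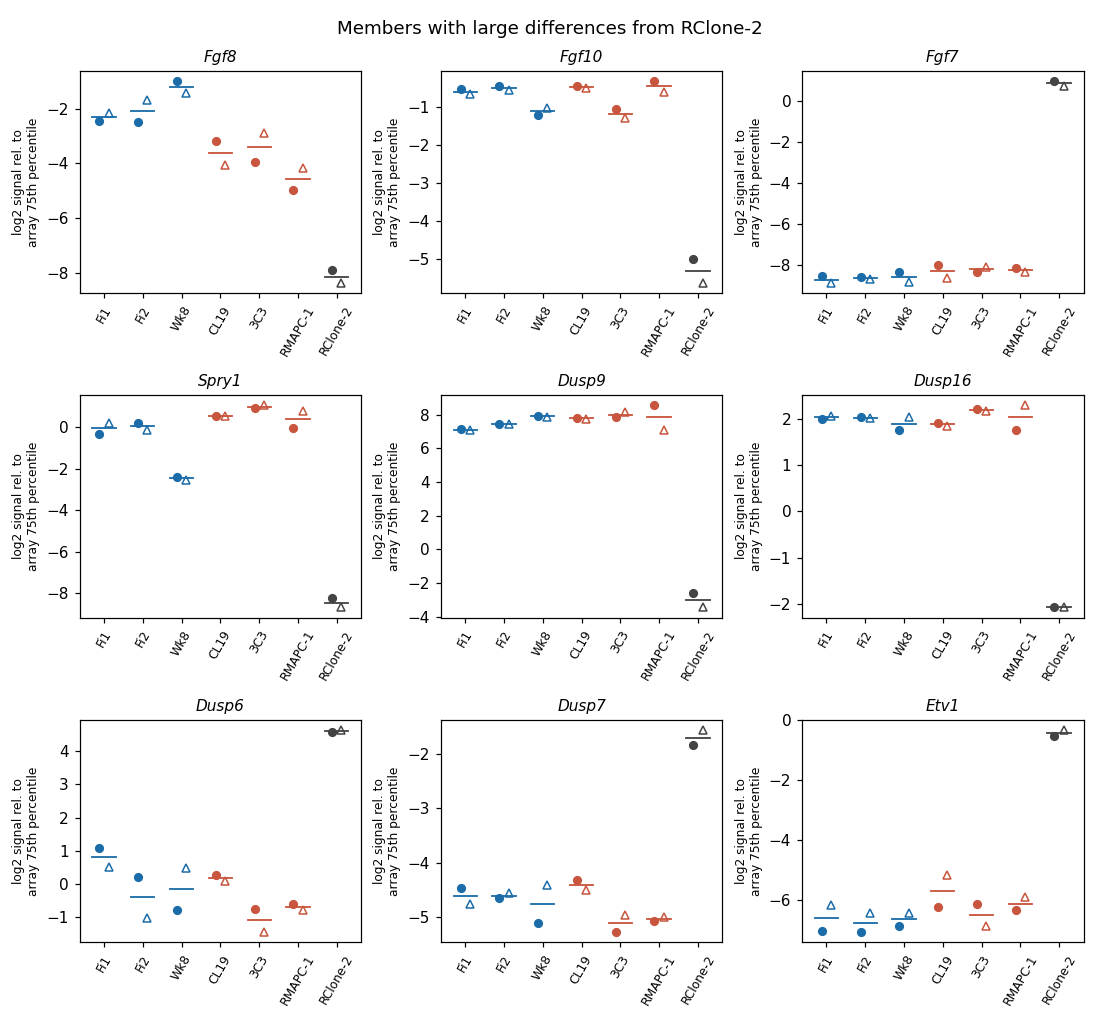
Level of 9 members by line: circles are array A, open triangles array B and horizontal bars the line mean, in blue for blastocyst, red for bone marrow and grey for the mesenchymal line, on a y axis of log2 signal relative to the array's 75th percentile. In each panel the RClone-2 arrays lie outside the range of the 12 stem cell arrays, below it for Fgf8, Fgf10, Spry1, Dusp9 and Dusp16 and above it for Fgf7, Dusp6, Dusp7 and Etv1.

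Receptors and binding partners of these ligands were taken from a list of 65 other pathway genes, of which 60 were tested. Of these, 20 exceeded RClone-2 and 21 fell below it. Over all genes tested 24.8% were higher and 22.5% lower, shares that also belong beside the counts of the single lists below. Of 5 receptors, Fgfr3 was higher by 6.15 ± 0.27 (SE, limma adjusted p = 1.88e-05) and Fgfr4 at least 67.6-fold higher, while the log2 difference of Fgfrl1, a receptor without a kinase domain, was -1.47. Of 13 tested co-receptors and binders, 5 were higher and 5 lower. Klb, the klotho protein that Fgf15 and Fgf21 use, was at least 146-fold and the glypican Gpc3 at least 124-fold higher. In the other direction, the syndecan Sdc2 differed by -8.78 ± 1.30 (SE, limma adjusted p = 0.00271), with 3 of 12 stem cell arrays above background, and the glypican Gpc1 by -2.63. Fgfr2, whose isoforms bind Fgf7, Fgf8 and Fgf10, had line means of -3.25 in Fi1, -1.26 in Fi2, -6.28 in Wk8, 1.63 in CL19, 2.04 in 3C3, 2.60 in RMAPC-1 and -3.51 in RClone-2, and was lower in the blastocyst than in the bone marrow lines (-5.69 ± 1.22, adjusted p = 0.0205). Its 3 dimmer probes differed by -2.72, -1.04 and -0.33, so the size depends on the probe.

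Of 9 adaptors, 2 were higher and 1 lower, among them the docking protein Gab1 (5.04). In the kinase cascade 5 of 13 genes were higher and 3 lower, including the scaffold Ksr1 (4.33), the ERK substrate kinase Rps6ka1 (4.61), Braf (2.12) and Mapk3, which encodes ERK1 (-1.82). Of 5 other tested regulators outside the member families, 3 were higher and 1 lower, among them Flrt3, a membrane protein that binds FGF receptors (8.35).

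Sprouty proteins block the pathway between receptor and RAF, and 2 of 4 were higher in the stem cell lines. Spry1 measured -2.54 on the lowest, 0.22 on the median and 1.05 on the highest of the stem cell arrays, against -8.22 and -8.69 in RClone-2, where it was not above background. The stem cell lines were at least 75.1-fold higher (log2 difference 8.36 ± 0.92, SE, limma adjusted p = 0.000806). Wk8 stood apart at -2.40 and -2.54, while the other 10 stem cell arrays lay between -0.32 and 1.05. Line means were -0.05 in Fi1, 0.04 in Fi2, -2.47 in Wk8, 0.53 in CL19, 0.98 in 3C3 and 0.38 in RMAPC-1. The Spry1 probe lies at chr2:124217774-124217833 (rn4).

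Spry2 was higher by 1.56 ± 0.20 (SE, 2.94-fold, limma adjusted p = 0.00168), with line means of 2.26 in Fi1, 2.14 in Fi2, 1.97 in Wk8, 2.38 in CL19, 2.48 in 3C3, 2.08 in RMAPC-1 and 0.66 in RClone-2, and no stem cell line overlapped RClone-2. Line means of Spry3 were -5.56 in Fi1, -5.00 in Fi2, -5.29 in Wk8, -5.25 in CL19, -5.40 in 3C3, -5.30 in RMAPC-1 and -5.19 in RClone-2, and those of Spry4 were -2.44 in Fi1, -2.66 in Fi2, -5.08 in Wk8, -1.86 in CL19, -2.85 in 3C3, -2.12 in RMAPC-1 and -2.51 in RClone-2. Neither passed against RClone-2 (adjusted p = 0.706 and 0.811). The other probe of Spry4 differed by -0.48 against -0.32 for the brighter one, and its lowest line was also Wk8, at -5.51.

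Spred proteins are membrane-bound relatives of sprouty that bring neurofibromin to RAS. Spred1 and Spred3 fell below RClone-2, with log2 differences of -1.25 ± 0.23 and -1.43 ± 0.19 (SE, limma adjusted p = 0.00613 and 0.00163). Line means of Spred1 were -2.71 in Fi1, -2.62 in Fi2, -2.88 in Wk8, -3.05 in CL19, -3.41 in 3C3, -2.87 in RMAPC-1 and -1.67 in RClone-2, where Wk8 rests on 1 array because the other spot was a scanner outlier. For Spred3 they were -5.04 in Fi1, -4.94 in Fi2, -4.82 in Wk8, -4.68 in CL19, -4.93 in 3C3, -4.57 in RMAPC-1 and -3.40 in RClone-2, and neither gene's stem cell lines overlapped RClone-2. Spred2 did not pass (-0.66 ± 0.67, adjusted p = 0.454), with line means of -5.61 in Fi1, -5.47 in Fi2, -7.26 in Wk8, -4.22 in CL19, -4.89 in 3C3, -4.61 in RMAPC-1 and -4.68 in RClone-2.

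The PEA3 group of ETS factors is transcribed in response to FGF in many tissues, and 2 of its 3 genes were lower in the stem cell lines. Etv1 measured -0.55 and -0.34 in RClone-2 and lay between -7.08 and -5.19 on the stem cell arrays, 1 of 12 of which was above background. Its stem cell line means were -6.61 in Fi1, -6.76 in Fi2, -6.66 in Wk8, -5.71 in CL19, -6.51 in 3C3 and -6.14 in RMAPC-1. The log2 difference was -5.96 ± 0.28 (SE, limma adjusted p = 2.57e-05). The blastocyst lines, at background on all 6 arrays, were at least 59.0-fold lower. The 3 other Etv1 probes were above background on the 2 RClone-2 arrays and on 0 stem cell arrays, and their fitted differences of -7.15, -5.93 and -4.80 are therefore against background. Etv4 had line means of -4.99 in Fi1, -4.38 in Fi2, -5.39 in Wk8, -2.48 in CL19, -3.68 in 3C3, -3.87 in RMAPC-1 and -1.77 in RClone-2. It differed from RClone-2 by -2.36 ± 0.58 (adjusted p = 0.0184), and its other probe gave -2.67.

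Etv5 had line means of 1.86 in Fi1, 2.35 in Fi2, 0.26 in Wk8, 3.67 in CL19, 2.53 in 3C3, 2.43 in RMAPC-1 and 3.89 in RClone-2, and its difference from RClone-2 did not pass (-1.70 ± 0.82, SE, limma adjusted p = 0.136, other probe -1.48). Among ETS factors outside that group, Etv2, a factor of blood and endothelial progenitors, was at least 3.09-fold higher (3.52 ± 0.54, adjusted p = 0.00305), with line means of -4.27 in Fi1, -4.58 in Fi2, -3.68 in Wk8, -5.17 in CL19, -4.56 in 3C3, -5.95 in RMAPC-1 and -8.22 in RClone-2. Of 4 endothelial markers, 3 were also higher in the stem cell lines, Vwf at least 35.8-fold, Pecam1 at least 15.1-fold and Kdr by 0.96, with list means of -4.12 to -2.26 against -6.88 in RClone-2. Of 4 blood markers only Cd14 was tested, and it was lower in the stem cell lines (-5.32 ± 0.23, SE, limma adjusted p = 1.81e-05). The part of these markers in the Etv2 difference was not tested. Line means of Etv3 were -3.53 in Fi1, -3.68 in Fi2, -3.16 in Wk8, -3.46 in CL19, -3.90 in 3C3, -3.95 in RMAPC-1 and -3.58 in RClone-2, and those of Etv6 were -1.71 in Fi1, -1.74 in Fi2, -1.56 in Wk8, -2.14 in CL19, -2.12 in 3C3, -2.002 in RMAPC-1 and -1.82 in RClone-2. Neither passed against RClone-2 (adjusted p = 0.924 and 0.779), and their sign changed with the scaling.

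Of the cytoplasmic phosphatases that act on ERK, 1 was higher and 2 lower. Dusp9 measured 7.11 on the lowest, 7.79 on the median and 8.56 on the highest of the stem cell arrays and -2.59 and -3.46 in RClone-2, and all 14 arrays were above background. The stem cell lines were 1673-fold higher (log2 difference 10.71 ± 0.28, SE, limma adjusted p = 2.94e-06). Stem cell line means were 7.12 in Fi1, 7.44 in Fi2, 7.90 in Wk8, 7.79 in CL19, 8.004 in 3C3 and 7.84 in RMAPC-1, and the origins differed by -0.39 ± 0.21 (adjusted p = 0.203). The Dusp9 probe lies at chrX:159541777-159541836 (rn4), and its promoter is printed above.

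Dusp6, a widely used readout of ERK activity, ran the other way. It measured -1.43 on the lowest, -0.26 on the median and 1.09 on the highest of the stem cell arrays and 4.56 and 4.63 in RClone-2, without overlap. The stem cell lines were 28.2-fold lower (log2 difference -4.82 ± 0.58, SE, limma adjusted p = 0.00121), with line means of 0.81 in Fi1, -0.39 in Fi2, -0.15 in Wk8, 0.18 in CL19, -1.09 in 3C3 and -0.69 in RMAPC-1. Dusp7, of the same class, had line means of -4.61 in Fi1, -4.60 in Fi2, -4.76 in Wk8, -4.42 in CL19, -5.12 in 3C3, -5.03 in RMAPC-1 and -1.70 in RClone-2 and was 8.35-fold lower (-3.06 ± 0.28, adjusted p = 0.000355).

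The nuclear phosphatases are immediate early genes, and 2 of 4 were higher and 2 lower. Dusp4 measured -5.14 on the lowest, -3.01 on the median and -2.41 on the highest of the stem cell arrays and -6.78 and -6.65 in RClone-2, where it was not above background, and was at least 7.90-fold higher (log2 difference 3.37 ± 0.68, SE, limma adjusted p = 0.00893). Its line means were -2.74 in Fi1, -3.57 in Fi2, -4.57 in Wk8, -2.43 in CL19, -3.48 in 3C3 and -3.30 in RMAPC-1. Dusp2 had line means of -2.23 in Fi1, -2.20 in Fi2, -2.22 in Wk8, -1.47 in CL19, -1.84 in 3C3, -1.99 in RMAPC-1 and -3.98 in RClone-2 and was 3.96-fold higher (1.99 ± 0.21, adjusted p = 0.000719). Dusp1, which also acts on JNK and p38, had line means of 2.07 in Fi1, 0.91 in Fi2, 1.61 in Wk8, 1.17 in CL19, 1.01 in 3C3, -0.57 in RMAPC-1 and 4.03 in RClone-2 and was 8.02-fold lower (-3.00 ± 0.71, adjusted p = 0.0164). Dusp5, specific for ERK, had line means of 2.77 in Fi1, 2.78 in Fi2, 3.00 in Wk8, 3.33 in CL19, 3.096 in 3C3, 2.24 in RMAPC-1 and 4.54 in RClone-2 and was 3.19-fold lower (-1.67 ± 0.39, adjusted p = 0.0149). In these 4 genes no stem cell array overlapped an RClone-2 array.

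Among phosphatases of JNK and p38, Dusp16 lay between 1.75 and 2.30 on the stem cell arrays and at -2.08 and -2.08 in RClone-2. Its line means were 2.04 in Fi1, 2.03 in Fi2, 1.90 in Wk8, 1.89 in CL19, 2.19 in 3C3 and 2.04 in RMAPC-1. The stem cell lines were 17.1-fold higher (log2 difference 4.09 ± 0.17, SE, limma adjusted p = 1.32e-05), and its other probe gave 3.15. Dusp8 had line means of 5.01 in Fi1, 5.16 in Fi2, 4.99 in Wk8, 6.14 in CL19, 5.80 in 3C3, 5.67 in RMAPC-1 and 6.13 in RClone-2 and differed by -0.67 ± 0.20 (adjusted p = 0.0384), with lines that overlapped.

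Of the 11 tested dual-specificity phosphatases outside these classes, 2 were higher and 2 lower. Dusp14 had line means of -2.63 in Fi1, -1.92 in Fi2, -1.14 in Wk8, -1.53 in CL19, -1.65 in 3C3, -1.70 in RMAPC-1 and 1.06 in RClone-2 and was 7.06-fold lower (log2 difference -2.82 ± 0.48, SE, limma adjusted p = 0.00487), and Dusp22 differed by -0.86 ± 0.26 (adjusted p = 0.0358). Dusp26 had line means of -5.65 in Fi1, -6.76 in Fi2, -6.23 in Wk8, -4.98 in CL19, -5.02 in 3C3, -3.93 in RMAPC-1 and -7.81 in RClone-2 and was at least 1.87-fold higher (2.38 ± 0.53, adjusted p = 0.0132). It was above background on 6 of 12 stem cell arrays, and the bounds were 1.08-fold for the blastocyst and 3.22-fold for the bone marrow lines. Dusp12 had line means of -0.87 in Fi1, -0.85 in Fi2, -1.07 in Wk8, -0.67 in CL19, -0.75 in 3C3, -0.69 in RMAPC-1 and -1.69 in RClone-2 and was 1.84-fold higher (0.88 ± 0.15, adjusted p = 0.00482). Dusp3, Dusp11, Dusp13, Dusp15, Dusp18, Dusp19 and Dusp23 did not pass, with differences between -1.23 and 0.52, and Dusp21 and Dusp27 were above background on no array. The dimmer Dusp18 probe did pass (-0.83).

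**Figure D3:**
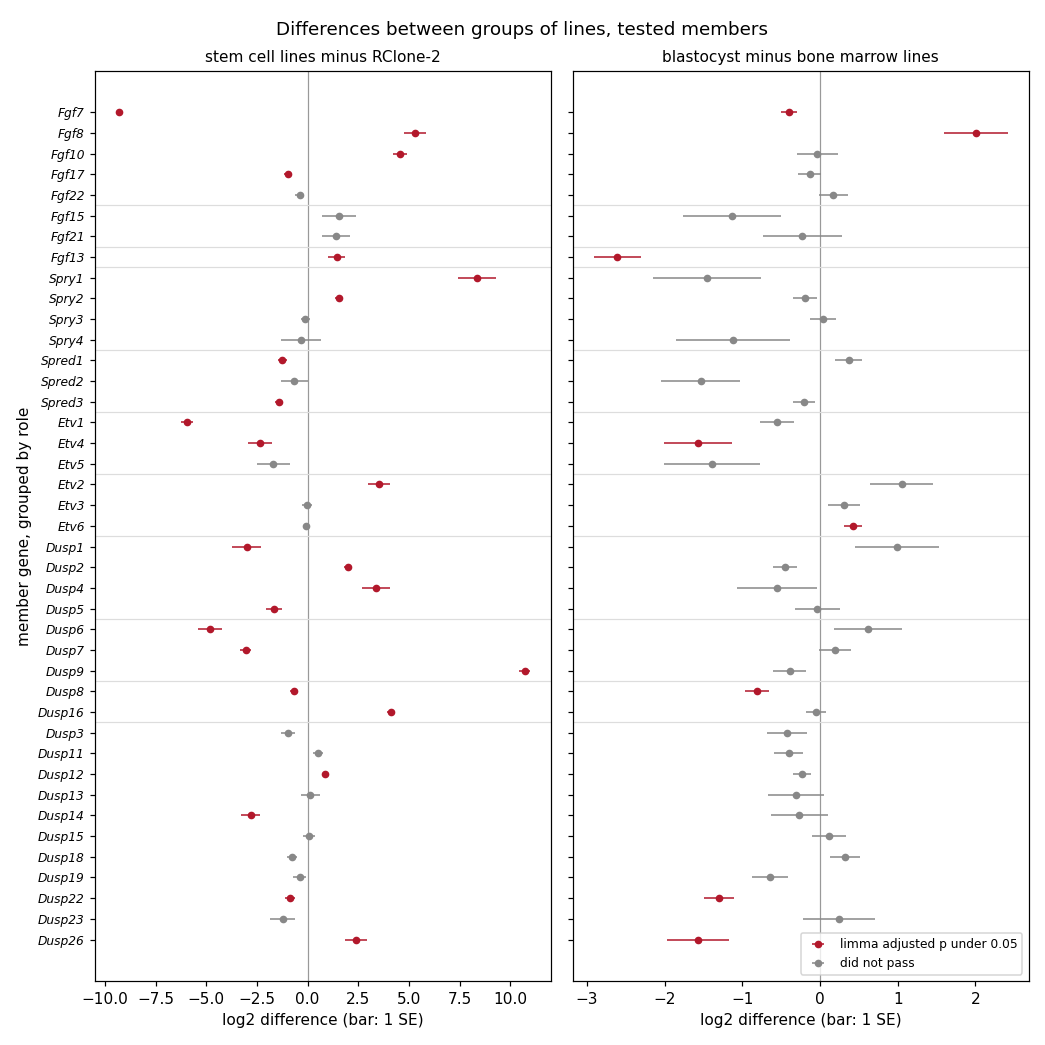
Log2 difference of each tested member (points, with bars of 1 SE) between the 6 stem cell lines and RClone-2 on the left and between the 3 blastocyst and 3 bone marrow lines on the right, in red where the limma adjusted p is under 0.05. Points reach from -9.31 for Fgf7 to 10.71 for Dusp9 on the left and from -2.61 for Fgf13 to 2.01 for Fgf8 on the right.

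Of 15 genes commonly read as transcriptional targets of ERK, 10 were lower and 3 higher in the stem cell lines, against 22.5% and 24.8% of all genes. The list was chosen with earlier results of these data known, so these counts are a description with no test. The AP-1 subunit Fosl1 differed by -8.61 ± 0.67 (SE, limma adjusted p = 0.000201), Egr1 by -4.17 ± 0.92 (adjusted p = 0.0125) and the cyclin Ccnd1 by -2.93 ± 0.48 (adjusted p = 0.00403). Epha4, Klf5 and Fos were higher, by 6.92, 5.40 and 3.15. Of the 17 sprouty, spred, PEA3 and nuclear or cytoplasmic phosphatase members, Spred1, Spred3, Etv1, Etv4, Dusp1, Dusp5, Dusp6 and Dusp7 were lower, Spry1, Spry2, Dusp2, Dusp4 and Dusp9 higher, and Spry3, Spry4, Spred2 and Etv5 did not pass.

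The differences from RClone-2 rest on 1 mesenchymal line, whose spread was taken from the other lines. Within the slides that hold RClone-2, the only stem cell lines are 3C3 and RMAPC-1, so no blastocyst line enters that comparison. The calls of Dusp1, Dusp5, Dusp8, Dusp22, Etv2, Fgf17 and Spred1 did not hold there. Differences within these slides were 10.95 for Dusp9, 9.14 for Spry1, 4.17 for Fgf8, -9.09 for Fgf7 and -5.48 for Dusp6. Without each stem cell line in turn, 23 of the 25 calls held. Dusp8 was lost without Fi1, Fi2, Wk8, 3C3 or RMAPC-1 (limma adjusted p up to 0.0723), and Dusp22 without Fi1, CL19, 3C3 or RMAPC-1 (up to 0.0640). Another background correction, normexp with an offset of 50, kept 16 of the 25 calls and made 15 differences smaller by over 1.5 times. Fgf7 (-4.43), Spry1 (3.32), Fgf10 (2.47), Etv1 (-2.60), Dusp7 (-1.46) and Fgf8 (1.26) still passed. It ended the calls of Dusp4, Dusp8, Dusp26, Etv2, Etv4, Fgf13, Fgf17, Spred1 and Spred3.

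The comparison of blastocyst with bone marrow lines asked whether stem cell lines of different origin differ. Of the 41 tested members, 8 passed, of which 2 were higher and 6 lower in blastocyst lines, against 32.8% of all genes (8.26% higher and 24.6% lower). Fgf8 and Etv6 were higher, and Fgf13, Dusp22, Etv4, Dusp26, Dusp8 and Fgf7 lower. Fgf7 passed the background filter through RClone-2 alone and was at background in both origins, so its call is not read as a difference. Markers differed between the origins too. In blastocyst lines 1 of 8 primitive endoderm markers was higher and 3 lower (Dab2 -1.80), 0 of 8 mesenchymal markers higher and 1 lower (Col1a1 -0.91), 2 of 4 endothelial markers higher (Vwf 2.56 and Kdr 0.63) and 1 of 3 tested trophoblast markers lower (Tfap2c -3.77). Of 6 epiblast markers only Pou5f1 was tested, and it differed by -2.80 (adjusted p = 0.00837), which is 1 gene and no reading of the list. The part of these markers in the member differences was not tested. The median was -0.23 over members and -0.22 over all genes. The scaling moved the split, since the 75th percentile lay between 746 and 891 on blastocyst and 559 and 660 on bone marrow arrays. Members called higher and lower were 7 and 2 without scaling, 1 and 12 with spiked-in scaling, 2 and 2 with quantile normalization, 2 and 3 with the percentile over detected probes, 2 and 4 with median centring and 0 and 2 with normexp. These shift the median of all genes by 0.48, -0.23, 0.15, 0.14, 0.15 and 0.13. Fgf7 changed sign without scaling (0.08), and the other 7 kept theirs under these settings.

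Dusp22, a phosphatase of JNK signalling, had line means of 1.62 in Fi1, 1.73 in Fi2, 1.12 in Wk8, 2.83 in CL19, 2.90 in 3C3, 2.64 in RMAPC-1 and 3.00 in RClone-2. It lay between 1.08 and 1.86 on blastocyst and between 2.24 and 3.04 on bone marrow arrays, without overlap. The blastocyst lines were 2.47-fold lower (log2 difference -1.30 ± 0.19, SE, 3 lines against 3, limma adjusted p = 0.00921). Dusp8 lay between 4.83 and 5.21 on blastocyst and between 5.26 and 6.17 on bone marrow arrays (-0.81 ± 0.15, adjusted p = 0.0157). Dusp26 was above background on 1 of 6 blastocyst and 5 of 6 bone marrow arrays (-1.57 ± 0.40, adjusted p = 0.0325). Against RClone-2, which both comparisons share, Dusp22 differed by -1.51 in blastocyst lines (adjusted p = 0.00603) and by -0.20 in bone marrow lines (0.577). The same values were -1.08 (0.00925) and -0.27 (0.363) for Dusp8, and -3.15 (0.00826) and -1.57 (0.0844) for Etv4.

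Etv4 lay between -5.90 and -4.21 on the blastocyst and between -4.58 and -2.32 on the bone marrow arrays, so that single arrays overlapped while line means did not. The blastocyst lines were 2.98-fold lower (log2 difference -1.58 ± 0.44, SE, limma adjusted p = 0.0396), and the other probe gave -1.64. Etv6 was 1.34-fold higher (0.42 ± 0.11, adjusted p = 0.0352). Line means of Etv5 (-1.39 ± 0.62, adjusted p = 0.133), Spred2 (-1.54 ± 0.51, 0.0626) and Spry1 (-1.46 ± 0.69, 0.154) did not overlap between the origins, but the differences did not pass. The other Etv5 probe differed by -0.75, and its line means did overlap. Dusp6 and Spry2 differed by 0.62 ± 0.44 and -0.19 ± 0.15 without passing.

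CL19 is the only bone marrow line on the slides of the blastocyst lines. With 1 line on that side, the fit within those slides tells nothing particular about the members, and none of their calls held in it. The differences there were 1.77 for Fgf8, -2.20 for Fgf13, -1.34 for Dusp22 and -2.44 for Etv4. Without each line in turn, Fgf8, Fgf13 and Dusp22 kept their calls (limma adjusted p up to 0.0482, 0.0288 and 0.0404). Dusp8 was lost without Fi1 or 3C3 (up to 0.0531), Etv4 without any line but Fi2 (up to 0.102), Dusp26 without any line but Fi1 (up to 0.0747), and Etv6 and Fgf7 without any of the 6 (up to 0.101 and 0.102). The count of members fell to 3 without 3C3 (12.5% of all genes) and to 4 without Fi1, CL19 or RMAPC-1 (14.9%, 22.5% and 12.5%). Normexp kept the calls of Dusp22 and Dusp8 and ended the other 6, Fgf8 (1.03, adjusted p = 0.0593) and Fgf13 among them.

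An F-test over arrays asked whether lines that share an origin differ, and in it arrays A and B of a line, which may be technical replicates, give the error. Spry1, Spred2 and Dusp15 passed (limma adjusted p = 0.00468, 0.0324 and 0.0497), 3 of 41 members against 7.25% of all genes. With the array letter as a block Spry1 still passed (adjusted p = 0.0113), and Spred2 and Dusp15 did not (0.0547 and 0.0758). In RMAPC-1, 12 of 41 members differed over 2-fold between arrays A and B, against 16.9% of all genes. Array A minus array B was 2.21 for Fgf13, 1.43 for Dusp9, 1.42 for Etv4 and -1.90 for Fgf15. In the other 6 lines 0 to 5 members differed that much, against 3.17% to 6.49% of all genes. The 5 were reached in Wk8 and in 3C3, where 4.66% and 6.49% of all genes did so. Without RMAPC-1, 12 members passed against 18.9% of all genes: Spry1 (adjusted p = 0.000767), Dusp14, Spred2, Dusp15, Dusp18, Etv2, Dusp11, Dusp3, Fgf21, Fgf15, Etv5 and Fgf10.

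Spry1, Spred2 and Etv5 had their lowest stem cell line mean in Wk8. Across the 17 sprouty, spred, PEA3 and nuclear or cytoplasmic phosphatase genes, Wk8 was the lowest stem cell line in 7 (Spry1, Spry2, Spry4, Spred2, Dusp4, Etv4 and Etv5) and the highest in 0. Over the 41 tested members Wk8 was lowest in 11 and highest in 7, and over all genes tested in 28.5% and 20.2%. CL19 was the highest in 9 of the 17 (Spry4, Spred2, Dusp2, Dusp4, Dusp5, Dusp7, Etv1, Etv4 and Etv5) and the lowest in 0, against 13 and 3 of the 41 tested members and 16.4% and 8.56% of all genes. These counts are a description with no test.

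Wk8 minus the mean of Fi1 and Fi2 was -2.53 in Spry4, -2.46 in Spry1, -1.85 in Etv5, -1.72 in Spred2, -1.41 in Dusp4, -0.70 in Etv4, -0.23 in Spry2 and -0.36 in Dusp6. Fgf8 and Dusp9 were higher there, by 0.98 and 0.62. Spry4 measured -6.47 on array A and -3.70 on array B of Wk8, so the size of its difference depends on the array. CL19 minus the mean of the blastocyst lines was 2.44 in Etv4, 2.18 in Etv5, 1.89 in Spred2, 1.54 in Spry4 and 1.19 in Dusp4. CL19 minus the mean of 3C3 and RMAPC-1 was 1.29, 1.19, 0.54, 0.62 and 0.95 in the same genes.

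**Figure D4:**
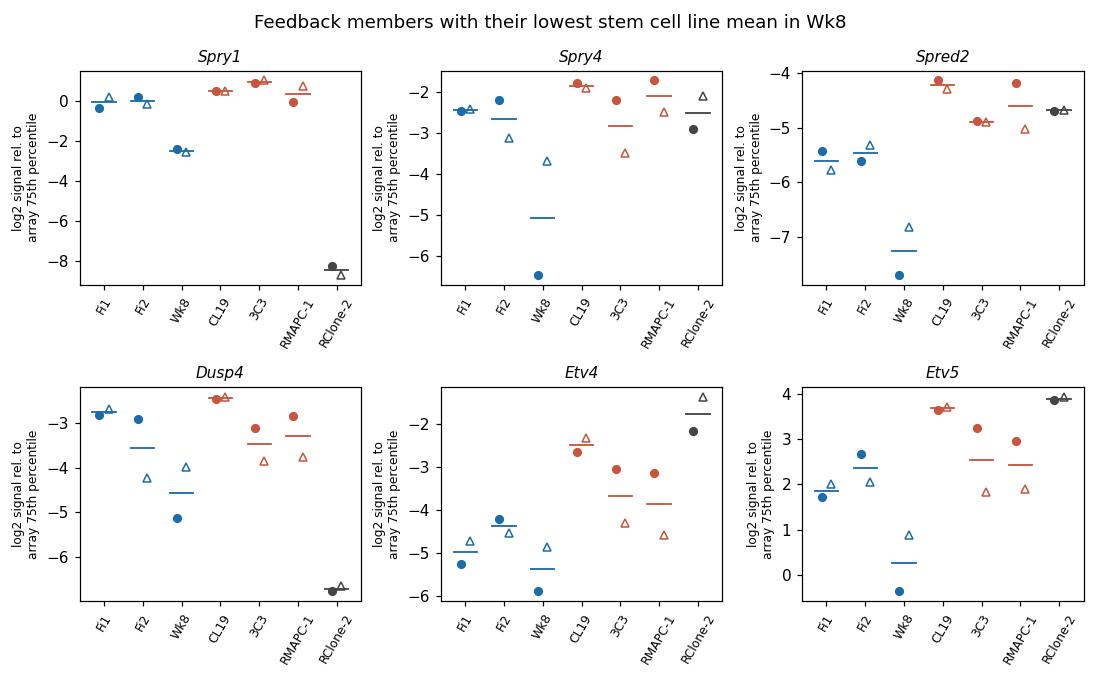
Level of 6 feedback members by line: circles are array A, open triangles array B and horizontal bars the line mean, in blue for blastocyst, red for bone marrow and grey for the mesenchymal line, on a y axis of log2 signal relative to the array's 75th percentile. The panels were chosen from the 7 of 17 such members whose lowest stem cell line mean is in Wk8, so the choice fixes that feature. CL19 has the highest stem cell line mean in all but Spry1.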

How the data were processed

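RNA of 7 rat lines was measured on 14 Agilent one-colour arrays. Per the submitters' processing notes, the scanner files were made with Agilent Feature Extraction 10.7.3.1. The deposited processed signals are intensity values with spatial and multiplicative detrending and surrogate values for spots near background, per the file headers, and the deposited flags (other values) mark outlier, saturated and well-above-background spots. The deposited series table holds log2 of these signals with no scaling between arrays and was used to check them.

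Outlier spots were left out, spots of a probe averaged, and log2 of the authors' intensity taken minus each array's 75th percentile over noncontrol spots. Arrays A and B were averaged per line. Group means of the 7 lines were fitted in limma 3.58.1 (R 4.3.3) with lmFit and eBayes, and p-values were adjusted by Benjamini-Hochberg over 24859 names, with a threshold of 0.05. Of 41012 probes, 20145 took their gene name from the RefSeq table and 20867 kept the name in the files, and no probe was moved into or out of a member gene. Python 3.11.15, pandas 2.3.3 and matplotlib 3.10.9 were used for tables and plots. The test was tested on simulated data. The members and lists were chosen with earlier results of these data known.

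Named with line values were every tested Fgf, Spry, Spred and Etv gene, the Dusp genes with the 8 largest passing, non-overlapping differences in each direction, and Dusp1, Dusp2, Dusp4, Dusp5, Dusp6, Dusp7 and Dusp9. For these genes, probes beyond the brightest that were above background on all arrays of some group are given where their values bear on a result. Alternatives covered scaling, background correction, filters, probe choice, gene names, left-out lines and arrays, blocks, sex and a 1.5-fold threshold. The number of lines limits the precision.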

Additional observations from a re-analysis of the deposited data

Results flagged for a closer look

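Single arrays stood far from the other 5 of their origin in 9 of 82 groups of arrays, where chance flags about 1 in 20 groups of independent arrays. The 6 arrays of an origin are 2 per line and not independent, so that rate may not hold here. Among blastocyst arrays, the lowest were array A of Wk8 for Dusp16 (1.75) and for Spry4 (-6.46), array B of Wk8 for Spry2 (1.76) and array B of Fi2 for Dusp26 (-7.64), and the highest was array B of Fi1 for Fgf13 (-7.45, below background). Among bone marrow arrays, array B of RMAPC-1 was the lowest for Dusp22 (2.24) and for Spry2 (1.62) and the highest for Dusp19 (0.56), and array A of RMAPC-1 was the highest for Fgf21 (-5.50).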

How the results depend on the processing

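Between the origins 8 members passed, against 32.8% of all genes, and shares of all genes are in brackets here. The members became 4 with quantile normalization (23.2%), 5 with the percentile over detected probes (24.4%) and 13 with spiked-in scaling (40.3%). They became 2 with normexp (4.9%), 2 without all A arrays (10.4%) and 4 without array A of RMAPC-1 (19.6%). With slide as a block they were 4 (12.9%), with sex as a covariate 5 (18.1%) and against a fold of 1.5 only 1 (2.4%). Without single lines they were 3 to 8 (12.5% to 32.8%). Within slides 1 and 3, which hold 1 bone marrow line, none of the 8 calls held. With the array letter as a replicate block 13 members passed (41.3%), and the letters share slides but no stated culture. Between groups of lines, the slide and letter blocks were fitted over arrays with line as a random block, not over line means. That array fit with neither block gave 12 members (41.8%), so the rise from 8 cannot be credited to the letter. Against RClone-2, 25 members (47.2%) became 16 with normexp (23.6%), 26 with the replicate block (53.3%) and 23 to 26 without single lines (42.3% to 50.1%). Within origins, 3 members (7.2%) became 1 with normexp (0.8%), 1 with no filter on dim probes (2.9%) and 1 with the replicate block (6.1%). Without both RMAPC-1 arrays they became 12 (18.9%). Fgf7, at background in both origins, reversed to 0.0824 between them without scaling. Single members kept direction and side of the threshold in 914 of 1103 alternative values between the origins and 954 of 1062 against RClone-2. Uncalled members that stayed uncalled count as kept, and between the origins these were 33 of the 41 members. The called members there ranged from 8 of 27 values kept for Fgf7 to 25 of 27 for Dusp22. In every alternative run, 0 of 8 and 12 of 25 calls held. Dim probes limit Fgf13, Fgf15, Fgf21, Dusp23 and Dusp26, which were near background on many arrays.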
